A study of Mus musculus with 24 samples.

Results

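miR-486 is a microRNA whose hairpin lies inside the Ank1 gene, and it was measured here in mouse soleus by 1 of the 584 microRNA assays on the PCR cards. Its assay was found by its name, mmu-miR-486, and the rule used no measured value, although miR-486 was proposed with earlier results of these data known. It sits on card A, which carries 375 microRNA assays, and it gave a signal in all 12 animals. It was 1 of the 268 assays with enough detected values to be tested.

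The study asked how muscle microRNAs differ when a fatty acid-sensing nuclear receptor, PPARα or PPARβ, is raised in skeletal muscle. Soleus RNA came from 12 male mice aged 12 weeks, in 4 groups of 3. MCK-PPARa mice overexpress PPARα in muscle and NTGa mice are the non-transgenic littermates of that line. MCK-PPARb mice overexpress PPARβ in muscle and NTGb mice are the non-transgenic littermates of the second line. MCK is the usual short form of muscle creatine kinase, whose promoter drives transgenes in striated muscle. The sources used here do not give the strain, the number of founders per line or the level of each transgene, and the cards hold no assay for PPAR transcripts, so the genotypes were not checked. Replicates are called biological and were treated as separate animals.

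miR-486 is enriched in striated muscle, where its hairpin is transcribed within the muscle form of Ank1, the gene of a membrane and sarcoplasmic reticulum anchor protein. Its known targets include FoxO1, a transcription factor of muscle atrophy genes, and Pax7, a factor of muscle stem cells that falls as myoblasts differentiate. Red blood cells also hold much miR-486, along with miR-451, so blood left in a muscle contributes to the signal. In RefSeq (GRCm38.p6) Mir486 falls within the span of Ank1, and a second hairpin, Mir3107, also called mir-486b, falls within the span of Mir486. The assay name gives neither the arm nor the hairpin that it reads.

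The sequences below belong to the microRNAs against which miR-486 is read: miR-451, the red cell microRNA, and miR-499, which had the lowest Pearson r with miR-486 over the 12 animals among assays detected in every animal. They are from RefSeq (GRCm38.p6), written 5′ to 3′, with the seed (bases 2 to 8) in capitals, and no seed is shared among them. The miR-499 assay is also named without an arm, so both arms are shown.
mmu-miR-451a: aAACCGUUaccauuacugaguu
mmu-miR-499-5p: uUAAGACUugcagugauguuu
mmu-miR-499-3p: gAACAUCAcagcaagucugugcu

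Between 248 and 296 assays were detected per animal, at a cycle threshold (Ct) under 35. The Ct is the number of cycles a well needs to reach a set fluorescence, so abundant template gives a low Ct. The mean Ct of the card A assays detected in every animal ranged from 27.6 to 28.4, and it was 27.6 in NTGb replicate 2 against 28.4 in the other NTGb animals. The tissue label was checked against miR-1, miR-133a, miR-133b and miR-206, general or skeletal muscle microRNAs, which were detected in all 12 animals, whereas liver miR-122 had a Ct in 1 animal and cardiac miR-208 was detected in 3.

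miR-486 was among the more abundant microRNAs of the soleus. Its mean Ct over the 12 animals was 23.9 (SD 0.431), which was 4.13 cycles below the card A mean of 28.0 and placed it 20 of the 149 card A assays detected in every animal. Its place ran from 15 to 24 across single animals. By group mean it was 16 in MCK-PPARa, 21 in NTGa, and 22 in both NTGb and MCK-PPARb. The assays just ahead of it were miR-145 at a mean Ct of 23.5, miR-26b at 23.7 and miR-150 at 23.8, and those just behind were miR-195 at 24.0, miR-19b at 24.2 and miR-30a at 24.3. These 6 neighbours had SDs across animals of 0.315 to 0.533 Ct, so their order around miR-486 is not resolved. Assays can differ in efficiency, so this order is one of Ct and not of molecule number.

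The measured Ct of miR-486 was lowest in the MCK-PPARa animals. NTGa replicates 1, 2 and 3 gave Ct 23.8, 23.7 and 23.8, a mean of 23.8 ± 0.0774 (SD, n = 3). MCK-PPARa replicates gave 23.3, 23.2 and 23.3, a mean of 23.3 ± 0.0728 (SD, n = 3). Every MCK-PPARa animal was therefore below every other animal of the study in Ct. NTGb replicates gave 24.0, 24.0 and 24.3, a mean of 24.1 ± 0.185 (SD, n = 3). MCK-PPARb replicates gave 24.5, 24.4 and 24.1, a mean of 24.3 ± 0.193 (SD, n = 3), and these values overlapped those of NTGb. Each Ct is from 1 well. For scale, the 4 U6 wells of an animal on card A had a median SD of 0.0900 Ct, and 94 pairs of duplicate wells on card B at Ct 22 to 26 differed by a median of 0.0671 and a 95th percentile of 0.379 Ct.

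Scaling to the mean Ct of the detected assays on the card gives a relative abundance on the log2 scale, on which 1 unit is a doubling if template doubles in each cycle. On this scale miR-486 was 3.99, 3.98 and 4.08 in NTGa, a mean of 4.01 ± 0.0539 (SD, n = 3). It was 4.71, 4.76 and 4.62 in MCK-PPARa, a mean of 4.70 ± 0.0736 (SD, n = 3). The MCK-PPARa animals again stood above all 9 others. The NTGb values were 4.40, 3.59 and 4.13, a mean of 4.04 ± 0.410 (SD, n = 3), and the MCK-PPARb values were 3.61, 3.65 and 4.01, a mean of 3.76 ± 0.221 (SD, n = 3). The NTGb range covered the whole MCK-PPARb range, and its low value was that of replicate 2, whose card mean stood apart while its miR-486 Ct did not. In order of group mean MCK-PPARa came first, followed by NTGb, NTGa and MCK-PPARb, and the last 3 of these overlapped one another on the scaled values.

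**Figure D1:**
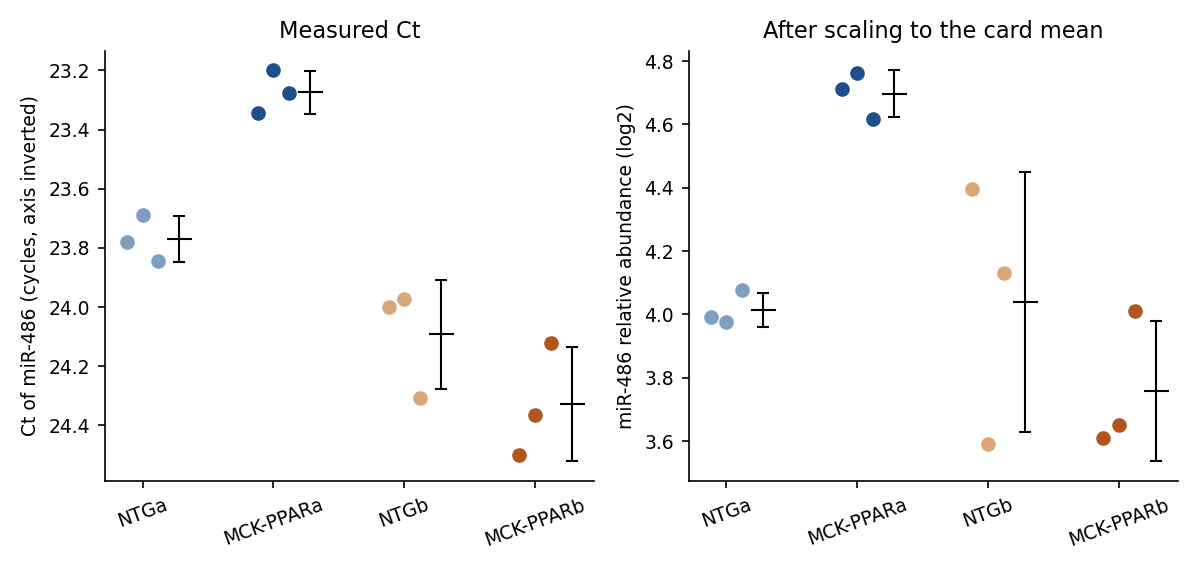
miR-486 in each of 12 animals, by group, as the measured Ct (left, cycles, axis inverted so that up means more template) and as log2 relative abundance after scaling to the card mean (right). Points are animals, and bars are the mean and SD of 3; the MCK-PPARa animals, at Ct 23.2 to 23.3 and log2 4.62 to 4.76, lie above all 9 others in both panels.

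In MCK-PPARa against NTGa, miR-486 was 0.68 higher on the log2 scale (SE 0.23, 95% interval 0.17 to 1.20), which is 1.60-fold (1.12 to 2.30). All 9 pairs of a transgenic and a control animal went the same way. The difference did not pass the test over all assays (limma, Benjamini-Hochberg adjusted p = 0.206), and its unadjusted limma p ranked 18 of 268. In this comparison 6 of 268 assays, 2.24%, passed, with 3 higher and 3 lower. Groups that do not overlap were found for 69 assays, 25.7%, in either direction, so the separation of miR-486 is a common feature of the comparison. The median over all tested assays was 0.12, and 39 assays had a larger positive difference. For 3 animals against 3, the exact permutation test cannot go below p = 0.1, the value it gave here (adjusted p = 0.15 over 6 tests).

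In MCK-PPARb against NTGb the value of miR-486 was -0.28 (95% interval -0.80 to 0.24; limma adjusted p = 0.787), with overlapping groups and a transgenic animal above a control in 3 of 9 pairs. Limma called 0 of 268 assays here, 0%, while 23 had an unadjusted p under 0.05 and 41, 15.3%, had groups that did not overlap. The interval leaves room for a rise of 1.18-fold. The sign turned with U6 as the reference, to 0.031. The value was -0.51 without NTGb replicate 2 (limma adjusted p = 0.405), -0.10 without NTGb replicate 1 (limma adjusted p = 0.901), -0.47 with the median as the reference and -0.49 with animal weights (limma adjusted p = 0.348).

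The effects of the transgenes on miR-486 differed by 0.96 (SE 0.33, 95% interval 0.23 to 1.70; limma adjusted p = 0.244). Of the 268 assays, 3, or 1.12%, were called for this difference of effects. Permuting the labels within each line gave an exact two-sided p of 0.02 over 400 relabellings, and 0.06 after adjustment over the 6 tests on the level of miR-486. Over the 4 groups together, 76.2% of the variance of miR-486 lay between groups (F = 8.53, exact permutation p = 0.0114 over 15400 regroupings, adjusted p = 0.06). Without NTGb replicate 2 the difference of effects was 1.19 and passed (limma adjusted p = 0.0495), and with U6 as the reference it was 0.46 (limma adjusted p = 0.540). It did not pass in the other 11 of 12 runs with an animal left out (limma adjusted p 0.216 to 0.456). Nor did it pass in any of 13 other settings (limma adjusted p 0.0628 to 0.540).

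The transgenic groups set side by side differed by 0.94 (SE 0.23, 95% interval 0.42 to 1.46), or 1.92-fold, with MCK-PPARa higher in 9 of 9 pairs of animals. The limma adjusted p was 0.0583, just outside the threshold, with 8 of 268 assays called, 2.99%, and 66, 24.6%, with no overlap. 25 assays had a larger positive difference. Whether it passed depended on the setting. It passed in 9 of 14 other settings of the analysis, at log2 0.92 to 1.05 (limma adjusted p 0.0100 to 0.0464). In the other 5 it did not pass, at log2 0.89 to 0.95 (limma adjusted p 0.0857 to 0.148). With an animal left out it did not pass in 11 of 12 runs (limma adjusted p 0.0532 to 0.224). The run that passed was without NTGb replicate 2, an animal outside this comparison (limma adjusted p = 0.0113). This comparison shares its animals with those to littermates, and line and transgene cannot be told apart in it.

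miR-486 did not separate the control groups. NTGa minus NTGb was -0.02 (95% interval -0.54 to 0.49; limma adjusted p = 0.957), with overlapping groups. Between the controls 5 of 268 assays were called, 1.87%, and 52, 19.4%, did not overlap. With other references this value moved from -0.32 to 0.53, and on the Ct as measured the NTGa animals were all below the NTGb and MCK-PPARb animals. Averaged over both lines, transgenic minus control was 0.20 (95% interval -0.17 to 0.57; limma adjusted p = 0.615), in a comparison with 6 called assays, 2.24%. It was 0.088 without NTGb replicate 2, 0.095 with animal weights and 0.13 for the unscaled Ct, and it passed in none of these.

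**Figure D2:**
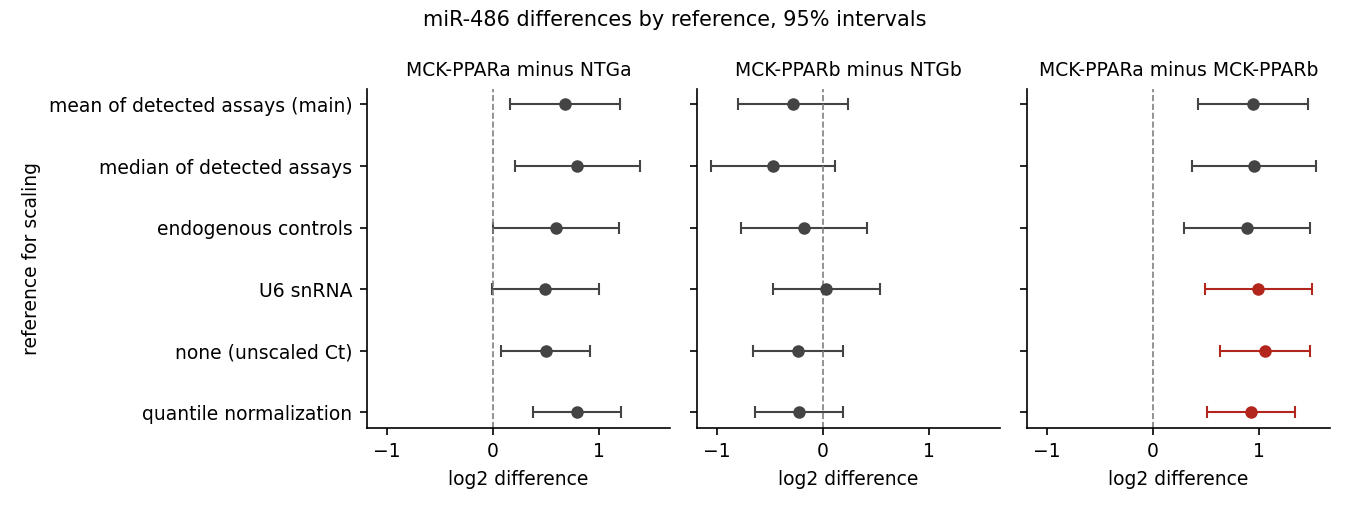
Difference in miR-486 (log2, x axis) with its 95% interval under each of 6 references for scaling (y axis), for MCK-PPARa minus NTGa, MCK-PPARb minus NTGb and MCK-PPARa minus MCK-PPARb. Red points have a limma adjusted p under 0.05; the first comparison stays between 0.49 and 0.79 and the third between 0.89 and 1.05, while the second runs from -0.47 to 0.031.

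miR-486 varied less within groups than most assays. Its residual SD was 0.238 on the log2 scale, against a median of 0.483 over the tested assays, and 39 of the 208 assays detected in every animal had a lower one. The SD depended on the reference: it was 0.144 for the unscaled Ct, 0.213 with U6 and 0.274 with the median of the detected assays.

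The muscle list holds miR-1 and the miR-133 family, which govern growth and differentiation of striated muscle, miR-206 of skeletal muscle, and miR-208, miR-208b and miR-499, which are encoded in myosin genes. Of its 7 members 6 were tested. In MCK-PPARa against NTGa limma called 1 lower and 0 higher, where 2.24% of all 268 assays were called. The median of the list was -0.10 against 0.12 over all assays. miR-1 was at -0.11, miR-133a at -0.08, miR-133b at 0.13 and miR-206 at 0.36, and none of these passed. miR-208b was at -1.31 and did not pass either (limma adjusted p = 0.334). In MCK-PPARb against NTGb 0 of 6 passed by limma, where 0% of all 268 assays passed, so this says little about the list. Its median was 0.12 against 0.02 over all assays, and miR-208b was at 1.32 (limma adjusted p = 0.532). Between the controls, NTGa minus NTGb, miR-208b was at -1.49 (limma adjusted p = 0.285). A rat miR-1 assay on card A, outside the list, was at -0.59 in the PPARα line and -0.07 in the PPARβ line. The mouse miR-1 assay was at -0.11 and 0.25, and why the assays differ was not tested.

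The member called lower was miR-499, the slow-fibre microRNA of Myh7b. Its Ct was 28.0 ± 0.0741 in NTGa and 31.9 ± 0.482 in MCK-PPARa (SD, n = 3 each), a log2 difference of -3.66 (limma adjusted p = 3.94e-05). It was 27.7 ± 0.192 in NTGb and 27.7 ± 0.0703 in MCK-PPARb, a log2 difference of -0.08 that did not pass (limma adjusted p = 0.935). In MCK-PPARa against MCK-PPARb, miR-499 was at -4.26 and miR-208b, of the slow myosin gene Myh7, at -4.12 on the log2 scale. Both passed (limma adjusted p = 8.44e-06 and 0.00278), where 2.99% of all 268 assays passed. miR-208b was at the detection floor in every MCK-PPARa animal, so each of its differences from that group depends on that floor. The other 4 tested members did not pass there, at -0.04 for miR-133a, -0.08 for miR-1, -0.14 for miR-133b and -0.41 for miR-206. The median of the list was -0.27 against 0.03 over all assays, of which 52.6% had a positive sign.

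**Figure D3:**
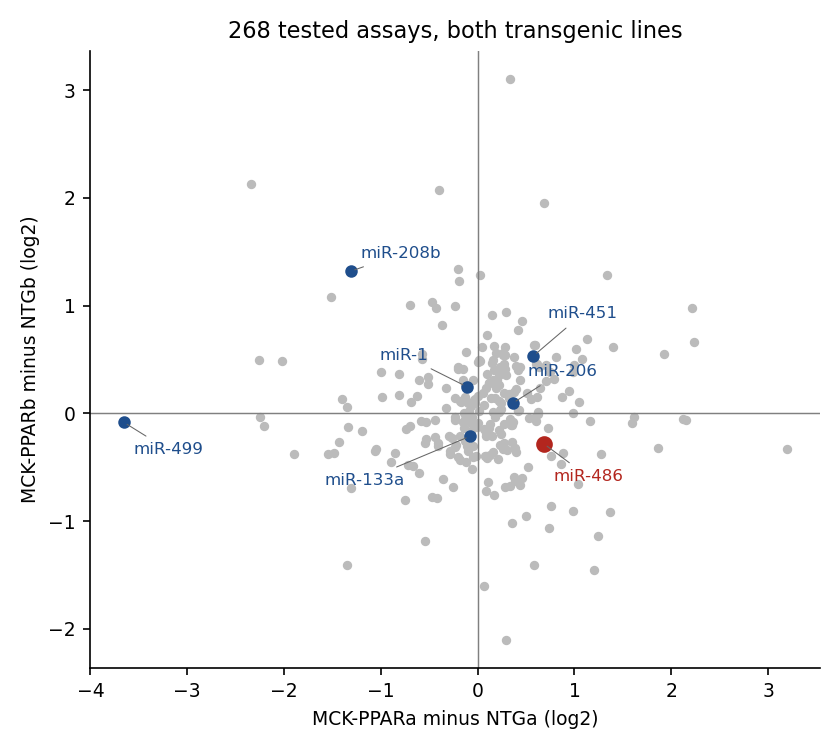
log2 difference of each of the 268 tested assays in MCK-PPARa minus NTGa (x axis) and in MCK-PPARb minus NTGb (y axis), 1 point per assay. miR-486 (red) lies at 0.68 and -0.28 and miR-499 at -3.66 and -0.08; blue points mark other named assays.

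A ratio within an animal needs no reference, since whatever shifts every Ct of a card cancels. The log2 ratio of miR-486 to miR-1 was -3.20 ± 0.0824 in NTGa and -2.40 ± 0.172 in MCK-PPARa (SD, n = 3 each), a difference of 0.79. It was -2.89 ± 0.210 in NTGb and -3.42 ± 0.266 in MCK-PPARb, a difference of -0.53. Neither pair of groups overlapped, and each gave the smallest exact permutation p possible, 0.1 (adjusted p = 0.122 over 11 ratio tests). The control groups did not overlap on this ratio either, with NTGa minus NTGb at -0.30, so non-overlap here is not particular to the transgenes. The ratio was 1.02 higher in MCK-PPARa than in MCK-PPARb (exact p = 0.1).

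Other general muscle assays gave the same direction in both lines, with smaller differences in the PPARβ line. Over miR-133a the differences were 0.76 in the PPARα line and -0.07 in the PPARβ line, and over miR-133b they were 0.55 and -0.42. Over a rat miR-1 assay on the same card they were 1.27 and -0.21. In the PPARα line none of these denominators gave overlapping groups, and in the PPARβ line each of these 3 did. All these ratios share miR-486, whose own level did not overlap in the PPARα line, so they largely repeat that separation. The share of ratios without overlap over all assays as denominators was not computed. The difference between the lines' effects was 1.32 over miR-1, 1.48 over the rat miR-1 assay, 0.83 over miR-133a and 0.97 over miR-133b. Their exact p-values, with labels permuted within each line, were 0.005, 0.025, 0.035 and 0.01, where 0.005 is the smallest these relabellings can give. After adjustment over the 11 ratio tests these exact p-values were 0.055, 0.0917, 0.0963 and 0.055, so none passed.

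**Figure D4:**
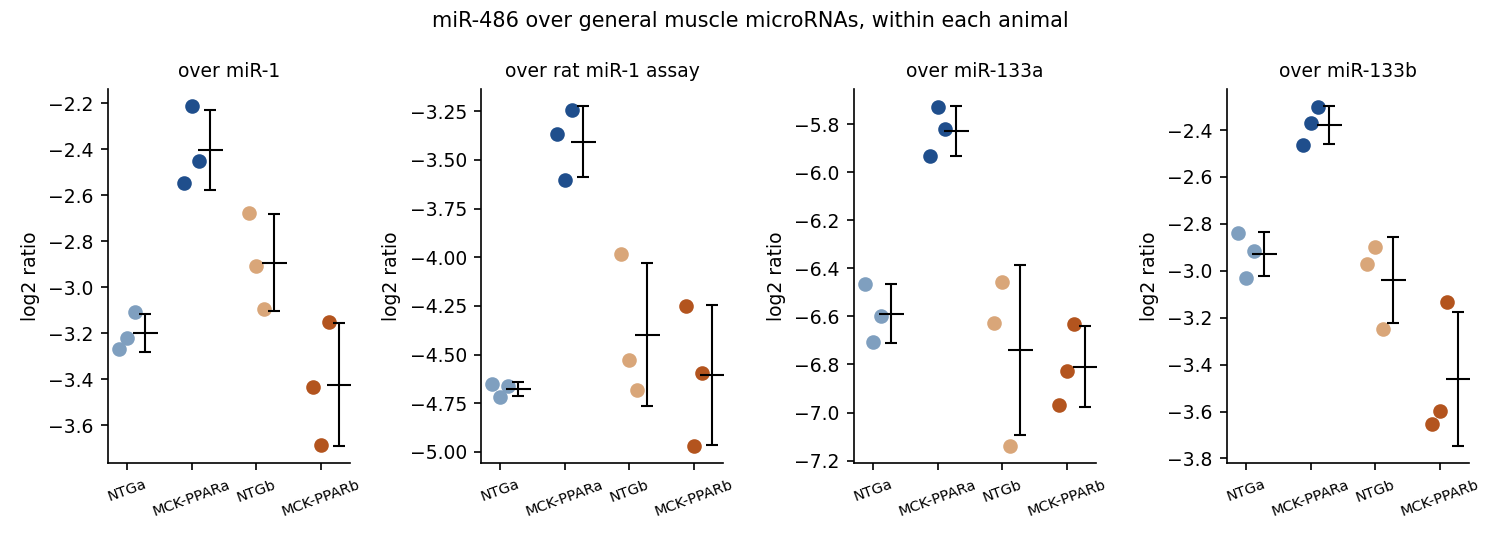
log2 ratio of miR-486 to miR-1, to a rat miR-1 assay, to miR-133a and to miR-133b in each animal (y axes, which differ between panels), by group (x axis), with the mean and SD of 3. In each panel the MCK-PPARa animals lie above those of all other groups, from -2.55 to -2.21 over miR-1 and from -5.93 to -5.73 over miR-133a.

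miR-451, the erythroid microRNA, was read as the measure of red cells in the tissue. It was the single member of a 3-member erythroid list matched to an assay. Its Ct was 28.8, 28.6 and 29.5 in NTGa, 28.1, 28.7 and 29.0 in MCK-PPARa, 29.7, 29.6 and 29.9 in NTGb, and 29.0, 29.1 and 29.4 in MCK-PPARb. The groups of the PPARα line overlapped and those of the PPARβ line did not. On the log2 scale miR-451 was at 0.58 in MCK-PPARa against NTGa (limma adjusted p = 0.420) and at 0.53 in MCK-PPARb against NTGb (limma adjusted p = 0.579). It ranged from -1.61 to -0.98 in NTGa, -1.09 to -0.06 in MCK-PPARa, -2.04 to -1.31 in NTGb and -1.27 to -0.90 in MCK-PPARb.

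The log2 ratio of miR-486 to miR-451 was 5.22 ± 0.403 in NTGa and 5.33 ± 0.497 in MCK-PPARa (SD, n = 3 each), and these groups overlapped. Their difference was 0.11 (exact permutation p = 0.9). The ratio was 5.66 ± 0.0434 in NTGb and 4.85 ± 0.397 in MCK-PPARb, without overlap, a difference of -0.82 (exact permutation p = 0.1, adjusted p = 0.122). Between MCK-PPARa and NTGa the differences were thus 0.68 for miR-486 and 0.58 for miR-451, side by side. The ratio to miR-451 overlapped between these groups, and the ratios to the muscle microRNAs did not. The ratio to miR-126-3p, an endothelial microRNA, did not overlap either, at -4.33 in NTGa and -3.92 in MCK-PPARa, a difference of 0.41. The part of red cells in the result was not tested, and in bulk tissue a different number of cells and a different amount of microRNA per cell cannot be told apart.

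Across the 12 animals miR-486 and miR-451 had a Pearson r of 0.534 (permutation p = 0.0705) and a Spearman rho of 0.273 (permutation p = 0.389). Without MCK-PPARa replicate 1 and NTGb replicate 2, the animals farthest from the median of miR-451, r was 0.0864 (permutation p = 0.811). Leaving out the extremes of miR-451 narrows its range, which by itself can lower r under any reference. With the card mean as the reference, this fall therefore cannot show whether the relation rests on those animals. Within the line r was 0.611 over the 6 animals of the PPARα line and 0.0141 over the 6 of the PPARβ line, and it was 0.324 for deviations from the group means. With U6 as the reference r was 0.662 (permutation p = 0.0187) and rho 0.636 (permutation p = 0.0293). For the unscaled Ct r was 0.589 (permutation p = 0.0435) and rho 0.629 (permutation p = 0.0319). Without the 2 animals farthest from the median under each of these references, r was 0.469 (permutation p = 0.169) with U6 and 0.398 (permutation p = 0.255) for the unscaled Ct, and rho was 0.479 and 0.564. Over 10 animals these stayed positive and did not pass.

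**Figure D5:**
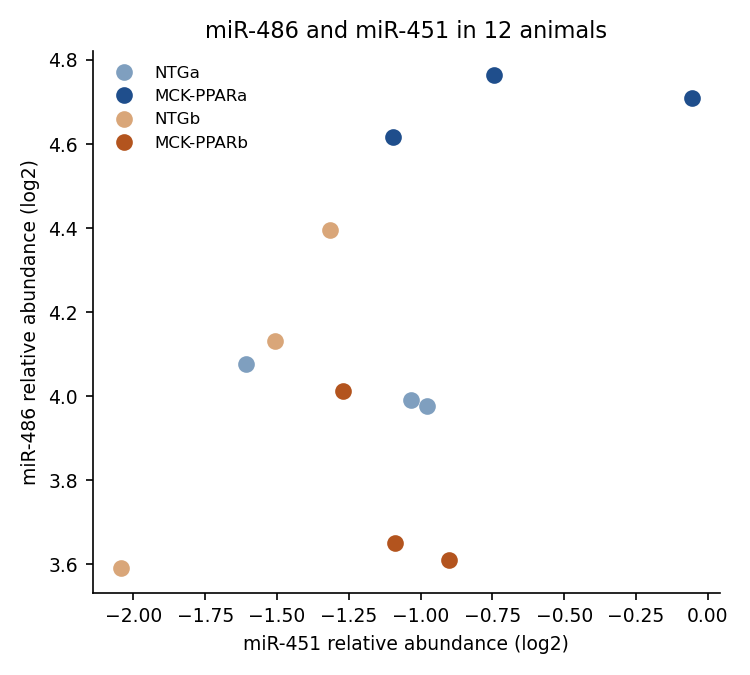
Relative abundance (log2) of miR-486 (y axis) against miR-451 (x axis) in 12 animals, coloured by group. MCK-PPARa replicate 1, at the far right, and NTGb replicate 2, at the lower left, are the animals farthest from the median of miR-451: on this scale r is 0.534 with them and 0.0864 without.

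Markers of the other cells in muscle were also measured, and none was called in either line. Of all 268 assays 2.24% were called in the PPARα line and 0% in the PPARβ line, so this absence says little about these cells. The 5 tested of 6 leukocyte markers had a median of 0.24 in MCK-PPARa against NTGa. Over all assays it was 0.12, with 58.6% positive. In MCK-PPARb against NTGb the leukocyte median was -0.19, against 0.02 over all assays. Of the 5, 4 were positive in the PPARα line, with miR-150 at -0.11, and 1 in the PPARβ line, miR-142-3p at 0.15. In MCK-PPARa against MCK-PPARb all 5 were positive, with a median of 0.31 against 0.03 over all assays, of which 52.6% were positive. For the difference of the lines' effects all 5 were positive too, with a median of 0.46 against 0.06, and 53.7% of all assays were positive. None of the 5 was called in either. The summed level of the leukocyte markers was 5.01 to 5.33 in NTGa, 5.04 to 5.40 in MCK-PPARa, 4.83 to 5.54 in NTGb and 4.75 to 5.08 in MCK-PPARb. The 4 markers of smooth muscle and fibroblasts had medians of 0.08 and -0.03. Endothelial miR-126-3p was at 0.27 and -0.10, and miR-126-5p at -0.85 and -0.37. The neural list had 2 tested members of 3, with medians of 0.75 and 0.27 that cover opposite signs. miR-9, under Ct 35 in 8 animals, was at 1.62 and -0.03, and miR-128a was at -0.12 and 0.57. The part of these cells in the level of miR-486 was not tested.

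Other microRNAs known to act on FoxO1 or Pax7 did not pass in either line, where 2.24% (PPARα) and 0% (PPARβ) of all 268 assays passed. Of 3 that act on FoxO1, miR-27a was at 0.29 in the PPARα line and 0.41 in the PPARβ line, and miR-182 at 1.60 and -0.09, and miR-96 was detected in 2 animals. Of 3 that act on Pax7, miR-1 and miR-206 are given above and miR-431 was detected in 1 animal. These cards measure no mRNA, so the targets were not read.

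The assays whose levels followed miR-486 most closely over the 12 animals, among 207 others detected in every animal, were miR-877* with a Pearson r of 0.787, miR-192 with 0.753, miR-203 with 0.749, and miR-34a and miR-126-3p with 0.741 each. The median r over the 207 was 0.0547, and miR-451 ranked 17. These r over all animals include the differences between groups. miR-877*, miR-190b and miR-93* were read on card B and scaled to its own mean, while the others share card A and its mean with miR-486. For deviations from the group means r was 0.849 for miR-126-3p, 0.671 for miR-192, 0.593 for miR-203, 0.503 for miR-877* and -0.0024 for miR-34a. miR-192 was higher in MCK-PPARa than in MCK-PPARb by 1.09 (limma adjusted p = 0.0183), and miR-877* was at 0.81 without passing (limma adjusted p = 0.279). The lowest Pearson r were those of miR-499 at -0.774, miR-190b at -0.761 and miR-93* at -0.648. Their Spearman rho had another order, at -0.357, -0.483 and -0.629. For miR-499 and miR-190b the deviations within groups had positive r, at 0.595 and 0.247.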

How the data were processed

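TaqMan Ct values of 24 deposited samples, 2 cards for each of 12 animals, were used. The authors deposited 1 Ct per well, not normalized, per the file headers; the software, threshold and baseline used are not given in the sources here. RNAzol B was used for extraction and PCR ran for 40 cycles, per the labels' protocols.

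The mean over wells of an assay was taken, and where another well had a Ct an empty one counted as Ct 40. Relative abundance (log2) was the mean Ct of assays detected (Ct under 35) in all 12 animals on the card, 149 on card A and 59 on card B, minus the assay's Ct, with floors of -6.56 and -5.66. The 268 assays detected in all 3 animals of a group were fitted with limma 3.58.1 (R 4.3.3) over 4 groups with 8 residual degrees of freedom. P-values are two-sided and adjusted by Benjamini-Hochberg, with calls at 0.05. Exact tests of 3 animals against 3 used SciPy 1.17.1. The exact tests over 4 groups and within lines enumerated every regrouping directly, and correlations used 100000 random permutations. The fit was tested on simulated data. The limited number of animals sets the precision.

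Members and lists were chosen with earlier results of these data known. Named were miR-486, members of the lists, the 5 assays most and 3 least like it, and 3 neighbours on each side in Ct; 1 list is not reported here. The tests with labels permuted within each line, and miR-133b and the rat miR-1 assay as denominators, and the correlations under other references with 2 animals left out, were chosen after values were seen. RefSeq served for names and sequences.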

Additional observations from a re-analysis of the deposited data

Results flagged for a closer look

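The effect of the PPARα transgene on miR-486 and that of the PPARβ transgene differed by 0.96 on the log2 scale, with an exact p of 0.02 when labels were permuted within each line. The same test on ratios within an animal gave 1.32 over miR-1, 1.48 over the rat miR-1 assay, 0.83 over miR-133a and 0.97 over miR-133b, with exact p-values of 0.005 to 0.035. These were picked out because the unadjusted exact p lay under 0.05; none passed after adjustment (0.055 to 0.0963), and they share miR-486 and all 12 animals, so they are not separate evidence. Limma over all assays gave an adjusted p of 0.244 for the first.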

How the results depend on the processing

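MCK-PPARa minus NTGa was positive and uncalled in every setting run: 0.49 to 0.79 with other settings (limma adjusted p 0.0806 to 0.313) and 0.65 to 0.72 with an animal left out. MCK-PPARb minus NTGb turned to 0.031 with U6 (limma adjusted p = 0.985) and ran from -0.51 to -0.10 with an animal left out; the mean over both lines ran from 0.088 to 0.29. NTGa minus NTGb turned to 0.11 with endogenous controls, 0.53 with U6 and 0.32 unscaled, and ran from -0.25 to 0.15 with an animal left out. U6 also moved the median of all assays, to 0.33 in MCK-PPARb minus NTGb and 0.49 in NTGa minus NTGb. The 0.031 of miR-486 lay below that 0.33. Setting it against a median of all assays undoes the U6 reference, so this is no separate evidence. The difference of effects ran from 0.79 to 1.19 with an animal left out, passing only without NTGb replicate 2. MCK-PPARa minus MCK-PPARb passed at 0.99 with U6, 1.05 unscaled and 0.92 with quantile normalization, and at 0.94 with a limit of Ct 32, with only assays detected in all animals, without a filter, on card A alone, with animal weights and with a trended robust variance; with an animal left out it ran from 0.87 to 1.07. The ratio to miR-451 in the PPARα line ran from -0.085 to 0.39 with an animal left out. The correlation with miR-451 passed with U6 (0.662) and unscaled (0.589), not once 2 animals were left out. The cause of these shifts was not tested. miR-144 as a denominator could not be run, since no assay used here matched it.

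With the replicate block the differences were 0.68, -0.28, 0.96 and 0.94 and the limma adjusted p 0.192, 0.753, 0.264 and 0.105. Same-numbered animals had no higher median r than differently numbered ones. Over 18 same-numbered pairs r was -0.288 to 0.234 with a median of -0.0229, above 0.1 in 5. Over 36 pairs with different numbers r was -0.336 to 0.245 with a median of 0.0400, above 0.1 in 8.

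Counts of called assays across settings were 4 to 12 for MCK-PPARa minus NTGa (6 in the report), 0 to 1 for MCK-PPARb minus NTGb (0), 0 to 29 for NTGa minus NTGb (5), 1 to 7 for the difference of effects (3), 6 to 13 between the transgenic groups (8) and 1 to 9 over both lines (6).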
